A study of Bos taurus with 19 samples.

Results

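Interferon-stimulated genes were followed in the theca interna of bovine ovarian follicles, the vascular and androgen-producing layer that lies outside the follicular basal lamina. A list of 38 such genes was used, and a gene was taken as measured when at least 1 probe set carried its symbol and no other; the brightest probe set stood for the gene. Of the 38 genes, 28 were measured, through 41 probe sets, out of 9155 genes with a probe set of their own among the 24127 probe sets of the array. The choice of genes used no measured value of these arrays, but it was made with earlier results of them known. The 10 genes without a probe set of their own were DDX58 (now RIGI), IFIH1, IRF1, IFIT1, IFIT3, BST2, IFITM3, GBP2, OAS1Y and OAS2, the last pair because they shared a probe set, and they were not analysed here. The paper lists BST2 as higher in large than in small healthy follicles, from a probe set that did not carry this symbol in the annotation used here.

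Each of the 19 Affymetrix Bovine Genome arrays was hybridized with theca interna RNA of 1 follicle from Bos taurus heifers that were not pregnant. There were 5 small healthy rounded and 5 small healthy columnar follicles (named for the shape of the basal granulosa cells), 5 small atretic follicles, all of 3 to 5 mm, and 4 large healthy follicles of more than 9 mm. The sources used here name no treatment of the animals. Granulosa cells had been scraped off before the theca was dissected, and no source used here says whether follicles came from separate heifers, so that p-values measure the spread between these follicles. Per the labels, large follicle RNA was extracted with Trizol and RNeasy columns, small healthy RNA with the RNeasy mini kit and small atretic RNA with the RNAqueous Micro kit, and 2 to 5 µg was labelled for the healthy groups against 250 ng for the atretic one. The methods of the paper instead describe a common protocol for all healthy thecae. Differences between groups and differences between RNA kits or amounts therefore cannot be told apart, and large and atretic follicles also differ in both size and health.

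Type I interferons bind a receptor made of IFNAR1 and IFNAR2, whose kinases phosphorylate STAT2. A complex that holds STAT2 and IRF9 then binds interferon-stimulated response elements in the promoters of many genes, among them further sensors of viral RNA, so that the response feeds its own inputs. Type II interferon acts through another receptor, and some of the genes, such as those of guanylate-binding proteins, answer to it strongly. In ruminants the same genes are best known from the endometrium and blood cells in early pregnancy, when the conceptus releases interferon tau.

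All levels below are log2 RMA signals, so that a difference of 1 is 2-fold, and levels of different genes are not set against each other because probe sets bind with different efficiency. Only probe sets that exceeded a log2 signal of 3, the detection limit, on 50% or more of the arrays in at least 1 of the follicle types compared were tested. A gene was called if its adjusted p from limma was under 0.05 and its difference was at least 2-fold. Of the 28 measured genes, 26 entered each comparison. MX2, a GTPase of the same family as MX1, lay between 1.7 and 2.5, and IFIT2, which binds viral RNA, between 2.2 and 2.8, and both stayed below the detection limit on every array.

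**Figure D1:**
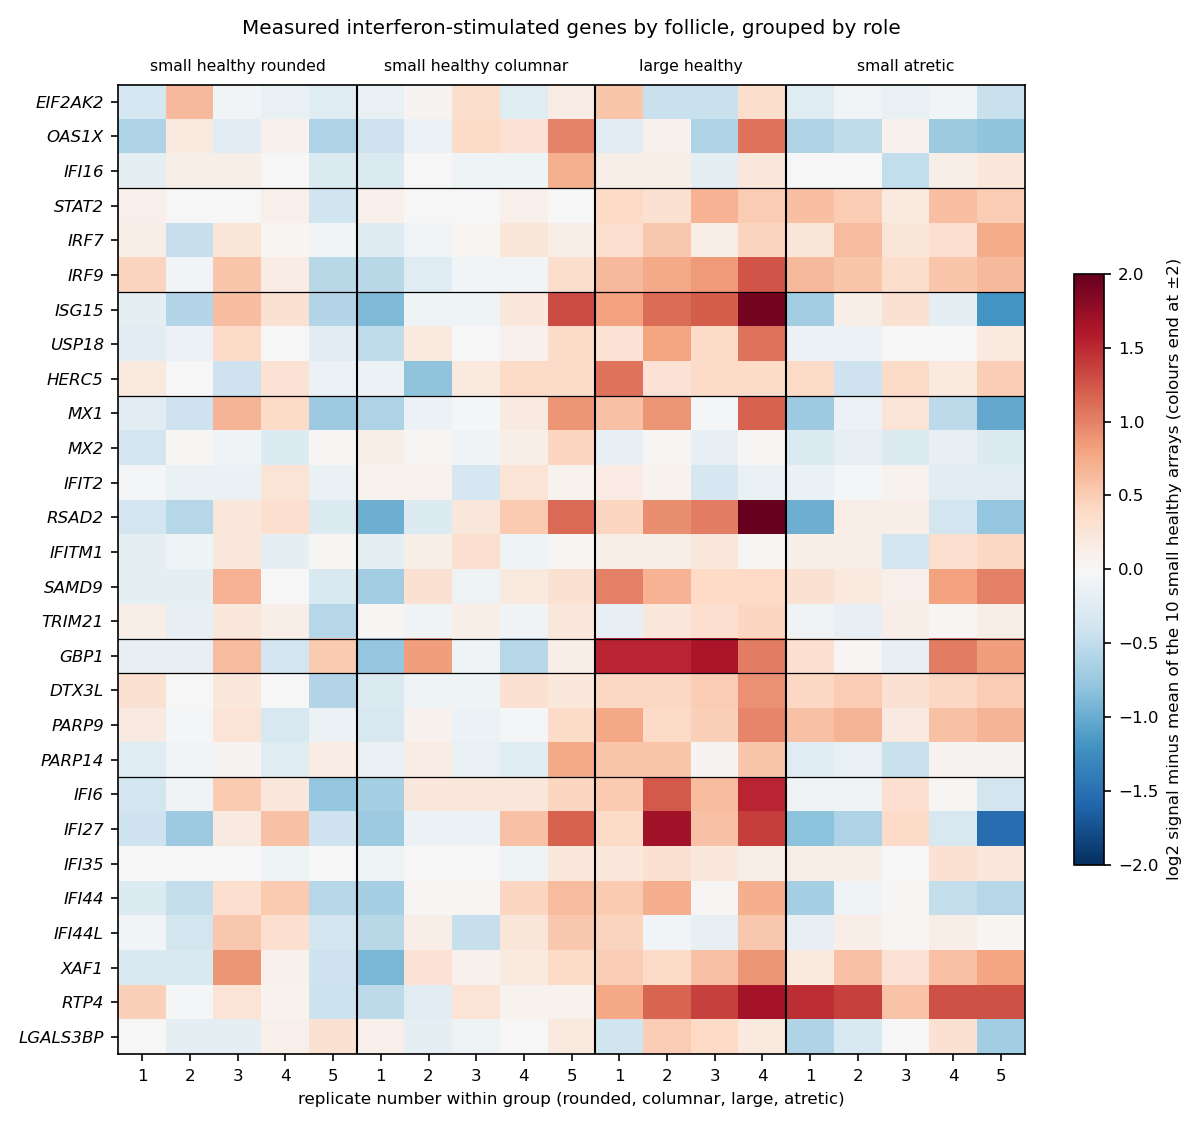
Log2 signal of each of the 28 measured interferon-stimulated genes (rows, grouped by role) on each of the 19 arrays (columns, by group and replicate number), as the difference from that gene's mean over the 10 small healthy arrays. The large healthy columns are red for ISG15, RSAD2, IFI6, IFI27 and GBP1, while the red of RTP4, STAT2, IRF9 and PARP9 extends over both the large and the atretic columns.

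Between large healthy and small atretic follicles, ISG15, IFI27 and RSAD2 had the widest differences of the list. ISG15 was 3.01-fold and IFI27 3.00-fold higher in the large follicles, and RSAD2, MX1, GBP1 and IFI6 were between 2.01-fold and 2.78-fold higher. RTP4, STAT2, IRF7, PARP9 and DTX3L, in contrast, had group means no more than 0.13 apart on the log2 scale. The same held for IFITM1, IFI35, IFI16 and XAF1. None of the 26 genes was called, and neither was any of the 15326 probe sets tested, a background of 0%; the smallest adjusted p in the whole comparison was 0.126. That background moved with the arrays fitted, to 40 probe sets called without large replicate 1, 92 without large replicate 4 and 43 with all 19 arrays in 1 fit, and no member was called in any of these. At an unadjusted p under 0.05, 10 of the 26 genes were higher in large follicles (38.5%) and 0 lower, where the background over all probe sets was 8.3% higher and 9.73% lower.

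ISG15 is a ubiquitin-like protein that is coupled to other proteins and also secreted. Its log2 signal was 6.7, 7.0, 7.1 and 7.8 in the 4 large follicles and 5.2, 6.0, 6.2, 5.7 and 4.7 in the 5 atretic follicles. In the 10 small healthy follicles it ran from 5.0 through a median of 5.8 to 7.2. Every large follicle lay above every atretic one, whereas 1 small healthy follicle, columnar replicate 5, reached above 3 of the 4 large ones. The difference between large and atretic follicles was 1.59 (SE 0.32, 95% interval 0.87 to 2.31, adjusted p = 0.138). Over the 19 alternative settings it ranged from 1.37 to 1.75, with adjusted p between 0.0564 and 0.358. USP18, the protease that removes ISG15 and also damps the type I receptor, was at 4.7, 5.2, 4.8 and 5.5 in large and at 4.3 to 4.6 in atretic follicles, with no overlap. The difference was 0.65 (SE 0.16, adjusted p = 0.141). The 3 other probe sets of USP18 gave 0.51, 0.99 and 0.51, and the first of these passed the filter only through the large follicles. HERC5, the ligase that attaches ISG15, differed by 0.33 (SE 0.22, adjusted p = 0.445), and its level of 5.0 in large replicate 1 stood apart from 4.2 to 4.3 in the other large follicles.

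RSAD2, or viperin, makes a chain-terminating nucleotide, and its log2 signals of 4.0, 4.5, 4.6 and 5.6 in large follicles lay above the 2.6, 3.7, 3.7, 3.2 and 2.8 of atretic ones. The difference was 1.48 (SE 0.34, adjusted p = 0.141). MX1, a dynamin-like GTPase that blocks viral nucleocapsids, was at 7.3, 7.6, 6.7 and 7.9 against 6.0, 6.6, 7.0, 6.2 and 5.7, so that large replicate 3 overlapped with the highest atretic follicle. Its difference was 1.08 (SE 0.30, adjusted p = 0.156). Among the other antiviral effectors, SAMD9 differed by 0.15, TRIM21, an antibody receptor of the cytosol, by 0.20, and IFITM1, a membrane protein that hinders viral entry, by 0 with a 95% interval of -0.34 to 0.34.

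IFI6 and IFI27 are small, related membrane proteins. IFI6 was at 7.9, 8.6, 8.0 and 8.9 in large and 7.3, 7.3, 7.7, 7.4 and 7.0 in atretic follicles, without overlap and with a difference of 1.01 (SE 0.22, adjusted p = 0.138). IFI27 was at 8.5, 9.8, 8.7 and 9.5 in large and at 7.3, 7.5, 8.5, 7.8 and 6.6 in atretic follicles, the lowest large one matching the highest atretic one. Its difference of 1.58 had the widest error of the group (SE 0.38, adjusted p = 0.141). IFI44 differed by 0.86 (SE 0.19, adjusted p = 0.141), and its 3 other probe sets by 0.76, 0.53 and 0.77. The probe set with 0.76 passed the filter only through the large follicles, where it was higher. The neighbour of IFI44 in the bovine assembly ARS-UCD2.0, IFI44L, differed by 0.15 (SE 0.16, adjusted p = 0.63). ISG15, USP18, RSAD2 and IFI6 were the 4 of 26 genes whose large and atretic arrays did not overlap, which is 15.4% beside a background of 1.36% for probe sets higher in large follicles.

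GBP1, a guanylate-binding protein that coats vacuoles of pathogens, was at 6.0, 6.0, 6.1 and 5.5 in large follicles and at 4.8, 4.5, 4.3, 5.5 and 5.3 in atretic ones, a difference of 1.02 (SE 0.25, adjusted p = 0.141) with 1 tie between the groups. PARP14, a mono-ADP-ribosyltransferase, differed by 0.58 (SE 0.15, adjusted p = 0.146), although DTX3L, its neighbour in ARS-UCD2.0, and PARP9, the neighbour of DTX3L and its partner in a ligase complex, differed by 0.13 and 0.12. IRF9 was the remaining gene with an unadjusted p under 0.05, at 0.33 (SE 0.13, adjusted p = 0.24). EIF2AK2 (the kinase PKR) and OAS1X, a synthetase that activates RNase L, entered this comparison only through the large follicles, with differences of 0.19 and 0.60. The dimmer probe set of EIF2AK2 disagreed: it gave 0.78 (SE 0.17, adjusted p = 0.138), at 3.1 to 4.0 in large and 2.5 to 2.9 in atretic follicles, and it too passed the filter through the large ones. The remaining genes, LGALS3BP, XAF1, IFI16 and IFI35, differed by 0.44, 0.10, 0.09 and 0.06. Median differences were 0.26 for the 26 genes and -0.01 for all probe sets tested.

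**Figure D2:**
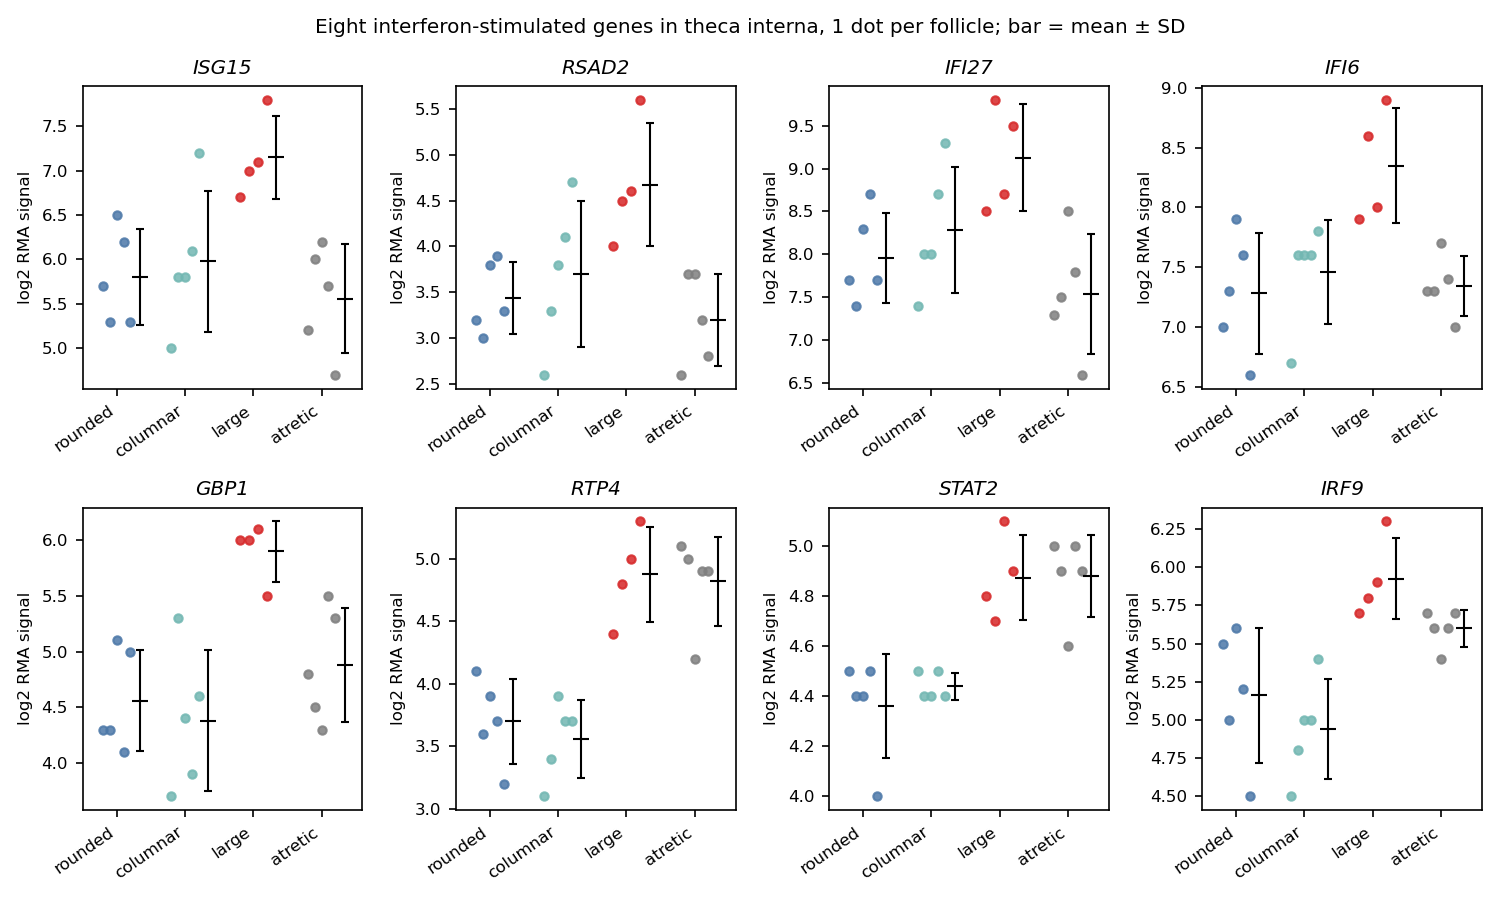
Log2 RMA signal of 8 interferon-stimulated genes in rounded, columnar, large and atretic follicles, with 1 dot per follicle and the mean ± SD of each group beside it. ISG15, RSAD2, IFI27, IFI6 and GBP1 are highest in large follicles, RTP4 and STAT2 have nearly the same mean in atretic and large follicles, and IRF9 lies between its small healthy and its large mean in atretic ones.

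Large healthy follicles were next set against the 10 small healthy ones, a comparison of size within health. GBP1, ISG15 and RTP4 rose in large follicles (2.69-fold, 2.40-fold and 2.37-fold), and none of the 26 tested genes was called lower. These 3 calls were 11.5% of the 26 genes, beside 98 of 15570 probe sets called higher (0.629%) and 12 called lower (0.0771%). With no limit on the fold change there were 7 genes, STAT2, IRF9, PARP9 and IFI6 being the others, against a background of 2.59% called higher. An unadjusted p under 0.05 was reached by 18 of 26 genes, all higher in large follicles, where the background was 12.1%. The median difference of the 26 genes was 0.55 and that of all probe sets tested was -0.005.

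GBP1 ran from 3.7 through a median of 4.35 to 5.3 in small healthy follicles, and all 4 large follicles lay above that range. The difference was 1.43 (SE 0.26, adjusted p = 0.00957). It kept its call in 25 of 26 alternatives; against rounded follicles alone it was 1.34 with an adjusted p of 0.0678. RTP4, a chaperone that carries G protein-coupled receptors to the cell surface, was at 4.4, 4.8, 5.0 and 5.3 in large follicles. Small healthy follicles ran from 3.1 through a median of 3.7 to 4.1, with no overlap. The difference was 1.25 (SE 0.18, adjusted p = 0.00285), and the 2 dimmer probe sets of RTP4 gave 0.68 (adjusted p = 0.0201) and 0.57 (adjusted p = 0.0604), so that the call was lost when the 3 were averaged (0.83) and also against rounded follicles alone (1.18, adjusted p = 0.0788). The adjusted p of RTP4 ranged from 0.00096 to 0.0788 over its 26 alternatives.

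The call of ISG15 was the least stable of the 3. Its difference of 1.26 (SE 0.32, adjusted p = 0.0449) stayed between 1.04 and 1.41 over 26 alternatives, but the call was lost in 15 of them, with adjusted p between 0.0134 and 0.181. It was lost without large replicate 2, 3 or 4, and without any 1 of rounded replicates 2, 4 and 5 and columnar replicates 1 to 4. Of the genes near it, RSAD2 differed by 1.11 (SE 0.33, adjusted p = 0.0763), IFI27 by 1.01 (SE 0.33, adjusted p = 0.101), IFI6 by 0.98 (SE 0.25, adjusted p = 0.0426) and USP18 by 0.64 (SE 0.17, adjusted p = 0.0502). MX1 differed by 0.66 (SE 0.28, adjusted p = 0.175). SAMD9 (0.63), XAF1 (0.59), HERC5 (0.54), IFI44 (0.51), PARP14 (0.43), IRF7 (0.37), IFI35 (0.21), TRIM21 (0.21), IFI44L (0.19), LGALS3BP (0.18) and IFITM1 (0.12) did not pass either. RSAD2 and IFI6 were called in addition without columnar replicate 5, the small healthy follicle with the highest levels, and without large replicate 1, when 5 genes were called.

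STAT2 and IRF9 encode the subunits that give the type I complex its transactivation and DNA binding. STAT2 was at 4.8, 4.7, 5.1 and 4.9 in large follicles and from 4.0 through a median of 4.4 to 4.5 in small healthy ones, without overlap, and rose by 0.48 (SE 0.10, adjusted p = 0.0193). IRF9 was at 5.7, 5.8, 5.9 and 6.3 against a range of 4.5 to 5.6 with a median of 5.0, and rose by 0.88 (SE 0.20, adjusted p = 0.028). PARP9 rose by 0.66 (SE 0.14, adjusted p = 0.0237) and touched the small healthy range at 5.6. DTX3L did not overlap either (0.56, SE 0.15, adjusted p = 0.0584). Non-overlapping genes were thus STAT2, IRF9, GBP1, DTX3L and RTP4, 5 of 26 (19.2%) beside a background of 1.09%. The 3 measured sensors had differences of 0 for EIF2AK2, 0.09 for OAS1X and 0.06 for IFI16, a sensor of DNA. For EIF2AK2 the dimmer probe set gave 0.68 (adjusted p = 0.0263), so that its probe sets disagreed. That dimmer probe set passed the filter only through the large follicles, where it was higher.

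Small atretic follicles were compared with small healthy ones to follow health at 1 size. RTP4 rose 2.28-fold and was the only gene of the list called, and 5 more, STAT2, IRF9, PARP9, IRF7 and DTX3L, passed the test with differences under 2-fold. ISG15, MX1, RSAD2, IFI27 and IFI44 had lower means in atretic follicles but did not pass it. SAMD9 (log2 difference 0.48), XAF1 (0.49), GBP1 (0.41), HERC5 (0.21) and IFITM1 (0.12) had higher means and did not pass either. Over the 26 tested genes the signs were mixed, with 14 higher and 12 lower. The 1 call was 3.85% of the 26 genes, near the background of 2.08% of probe sets called higher and 1.6% called lower. The 6 genes that passed with no fold limit were 23.1%, beside a background of 16.9% higher, so that neither count stood far from that of all probe sets. In the same comparison 8 of 10 tested macrophage genes were called higher, and their part in these differences was not tested.

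RTP4 was at 5.1, 5.0, 4.2, 4.9 and 4.9 in atretic follicles, each above the highest small healthy value of 4.1, with atretic replicate 3 the lowest. The difference was 1.19 (SE 0.17, adjusted p = 0.00135), and its other probe sets gave 0.66 (adjusted p = 0.00316) and 0.64 (adjusted p = 0.00224). Averaging the 3 probe sets brought it to 0.83, under the fold limit. STAT2 was at 5.0, 4.9, 4.6, 5.0 and 4.9, also above all small healthy follicles, and rose by 0.48 (SE 0.09, adjusted p = 0.00262). RTP4 and STAT2 were the 2 of 26 genes without overlap (7.69%), beside a background of 1.42%. PARP9 rose by 0.54 (SE 0.12, adjusted p = 0.0061), IRF9 by 0.55 (SE 0.17, adjusted p = 0.0222) and DTX3L by 0.43 (SE 0.13, adjusted p = 0.0201). IRF7, the factor that amplifies interferon gene transcription, rose by 0.44 (SE 0.12, adjusted p = 0.0144), but of its 2 other probe sets 1 gave -0.02 (adjusted p = 0.893) and 1 stayed under the detection limit and was not tested.

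In the same comparison ISG15 differed by -0.33 (95% interval -0.999 to 0.339, adjusted p = 0.428), MX1 by -0.42 (adjusted p = 0.221), RSAD2 by -0.37 (adjusted p = 0.326), IFI27 by -0.58 (adjusted p = 0.169) and OAS1X by -0.51 (adjusted p = 0.0964). OAS1X entered this comparison only through the small healthy follicles, where it was higher, and EIF2AK2 only through the columnar ones. The 95% intervals of ISG15, MX1 and RSAD2 reached down to about a 2-fold decrease and that of IFI27 to -1.26. These intervals also include 0 and do not show that the groups were alike. For OAS1X the interval ran from -0.997 to -0.023, and for EIF2AK2 from -0.49 to 0.11. Of the 26 genes, 14 had a positive and 12 a negative difference, and the median was 0.03 beside 0.01 for all probe sets; it was negative (-0.06 and -0.01) when arrays were centred on their medians or quantile normalized again.

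The comparisons with small healthy follicles share those 10 arrays, so the values are given side by side and their overlap is not a result. STAT2, IRF9, PARP9 and RTP4 passed the adjusted p in both. For RTP4 the difference from small healthy follicles was 1.25 in large and 1.19 in atretic ones, and the direct difference between these was 0.06 (95% interval -0.43 to 0.54). For STAT2 it was 0.48 in each, with a direct difference of -0.01 (95% interval -0.27 to 0.26). For PARP9 it was 0.66 and 0.54, with a direct difference of 0.12 (95% interval -0.22 to 0.45). For IRF9 the 0.88 and 0.55 were 0.33 apart (95% interval 0.03 to 0.62). For ISG15, by contrast, the differences were 1.26 and -0.33. The intervals of the direct difference excluded 2-fold in either direction for RTP4, STAT2 and PARP9. Over all probe sets tested between large and atretic follicles, the half-width of the interval had a median of 0.302. The median difference there was -0.015, so that excluding 2-fold was not particular to these genes.

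**Figure D3:**
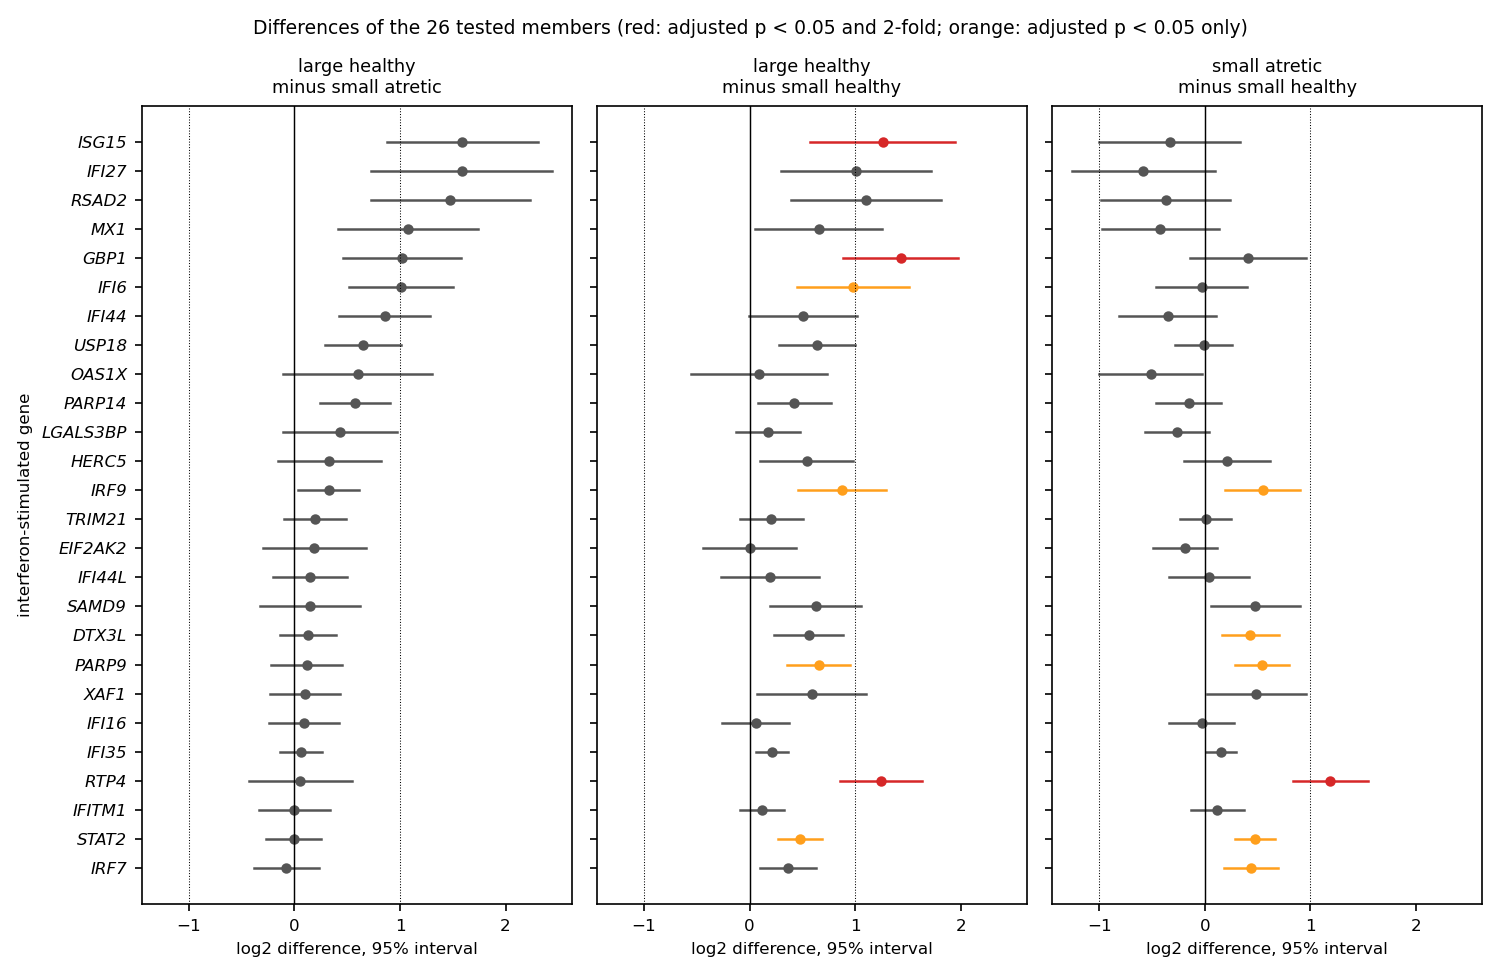
Log2 differences with 95% intervals from limma for the 26 tested genes in 3 comparisons, ordered by the difference between large and atretic follicles; dotted lines mark 2-fold, red marks genes called and orange those with an adjusted p under 0.05 only. No gene is coloured in the first comparison, 7 in the second and 6 in the third.

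Columnar and rounded small follicles were not told apart by these genes. No gene was called (background 0%), 0 of 26 had an unadjusted p under 0.05 (background 2.31% in either direction), and the differences of columnar from rounded ran from -0.22 for IRF9 to 0.46 for OAS1X with a median of 0.06. With 5 follicles a group, the half-width of the 95% interval had a median of 0.29 over all probe sets tested, and for ISG15 the interval reached from -0.58 to 0.94.

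The spread inside the small healthy groups was larger than this difference. Columnar replicate 5 had the highest level of the 10 small healthy follicles, ties included, for 15 of the 28 measured genes, and columnar replicate 1 the lowest for 15. ISG15 was at 7.2 in the former and 5.0 in the latter, MX1 at 7.6 and 6.1, RSAD2 at 4.7 and 2.6, and IFI27 at 9.3 and 7.4. Columnar replicate 1 also had the highest mean of granulosa cell genes among the small healthy follicles, 6.9 beside a group mean of 6.01. The part of granulosa cells in its low levels was not tested. Among large follicles, replicate 4 held the highest level for 17 of the 28 genes. The mean over the 28 genes had an SD of 0.25 in small healthy (n = 10), 0.18 in large (n = 4) and 0.08 in atretic follicles (n = 5).

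The genes also went up and down together from follicle to follicle within groups. After each group's mean was subtracted, Pearson's r over the 19 arrays had a median of 0.313 over the 325 pairs of the 26 tested genes, and 33 pairs (10.2%) were over 0.7. Over all pairs of the 7415 named genes tested, the median was 0.0055 and 2.59% were over 0.7. Arrays are shared by all pairs, and these values are a description. Leaving out any 1 array left the members' median between 0.223 and 0.363, the lowest without columnar replicate 1, an array with high granulosa cell genes. The closest pairs were MX1 with IFI44 (0.926), ISG15 with RSAD2 (0.914), IRF9 with DTX3L (0.9) and ISG15 with MX1 (0.896).

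Of the 33 pairs over 0.7, 15 joined IFI6, MX1, ISG15, RSAD2, IFI44 and IFI27 with each other. IFI6 and MX1 each had 7 partners with r over 0.7, ISG15, RSAD2 and IFI44 had 6 and IFI27 had 5. RTP4 had 2, and its r was 0.814 with IRF9. STAT2, EIF2AK2, IRF7, HERC5 and LGALS3BP, a secreted glycoprotein, had none. GBP1 (0.08), STAT2 (0.05), LGALS3BP (0.04) and HERC5 (0.00) varied almost without relation to the mean of the other members, while USP18 (0.85) and ISG15 (0.84) followed it most closely. Of 7389 further named genes, those whose deviations were most like the members' mean were EPSTI1 (0.859), DHX58 (0.858), EXO5 (0.757), UBA7 (0.755) and ZNFX1 (0.723), over 19 arrays. Without columnar replicate 1, the array farthest from its group, these were 0.838, 0.848, 0.735, 0.764 and 0.56.

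**Figure D4:**
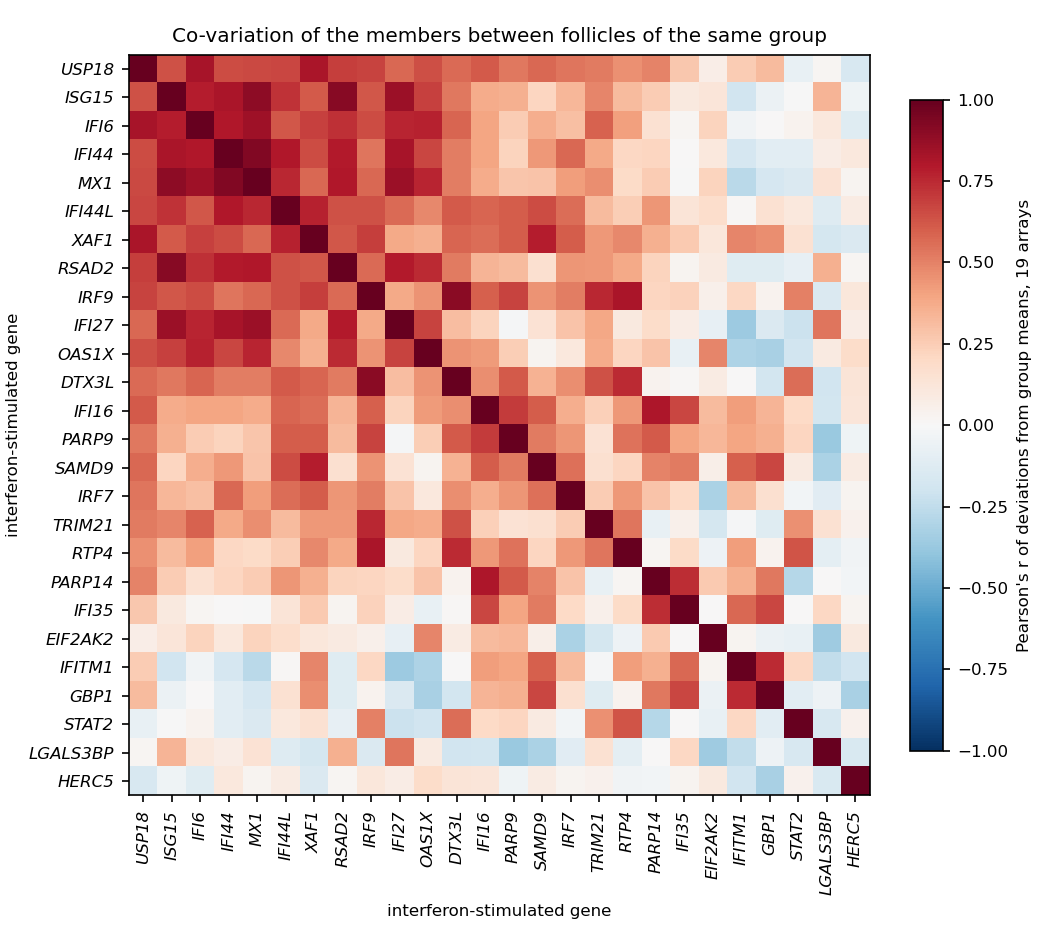
Pearson's r between the 26 tested interferon-stimulated genes over 19 arrays after subtraction of group means, with genes ordered by their r with the mean of the others. A block of high r joins USP18, ISG15, IFI6, IFI44, MX1, IFI44L, XAF1 and RSAD2, and the last 6 rows, from EIF2AK2 to HERC5, are pale against this block.

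The inputs of the pathway were read from the same arrays. Of 17 interferon genes listed, 4 were measured, and IFNB1, IFNT2, IFNG and IFNAC stayed under the detection limit on all 19 arrays, the highest value being 2.9 for IFNAC; none was tested. JAK2 and TYK2 had no probe set of their own. Of the receptor chains, IFNAR1 was not detected (1.8 to 2.6). The other 3 measured chains passed the adjusted p in atretic against small healthy follicles, where 16.9% of probe sets did so upward: IFNAR2 rose by 0.77 (SE 0.16, adjusted p = 0.00386), IL10RB by 0.36 and IFNGR2 by 0.29. In large against small healthy follicles IFNAR2 differed by -0.01 (SE 0.14, adjusted p = 0.984), and between large and atretic ones by -0.78 (SE 0.20, adjusted p = 0.143). The receptor kinase JAK1 (0.50, adjusted p = 0.00751) and STAT3 (0.85, adjusted p = 0.00432) rose in atretic against small healthy follicles also.

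Upstream sensors and adaptors gave 5 of 13 tested genes higher at an adjusted p under 0.05 in atretic against small healthy follicles (background 16.9%) and 0 lower, among them the NF-kB subunit RELA (0.36, adjusted p = 0.00291), TRAF6 (0.40) and the lipopolysaccharide receptor TLR4 (0.59). None of the 13 passed in large against small healthy follicles. DHX58, a regulator of the RNA sensors, was at 5.15 in large, 4.60 in atretic and 4.76 in small healthy follicles (means), and no comparison of it passed. Of 8 inhibitors tested, 3 (PTPN2, PTPN6 and IRF2) were higher in atretic than in small healthy follicles at an adjusted p under 0.05 (background 16.9%). The phosphatase gene PTPN6 was the only 1 of the 8 to pass in large against small healthy follicles, where it rose by 0.56 (SE 0.09, adjusted p = 0.00484).

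Further interferon-induced genes, listed from general knowledge, numbered 46, of which 27 were measured. In atretic against small healthy follicles 8 of 23 tested were higher (background 16.9%), 1 (WARS1) lower, and UBE2L6 (log2 difference 1.46) and PARP12 (1.03) were called (background 2.08%). In large against small healthy follicles 5 of 24 were higher (background 2.59%) with differences under 2-fold, namely GBP5, PARP12, PSMB10, TDRD7 and UBA7, and none was lower. Both enzymes that carry ISG15 to HERC5 were on this list. The activating enzyme UBA7 had means of 5.33 in large, 4.86 in atretic and 4.80 in small healthy follicles, and rose by 0.53 in large against small healthy ones (SE 0.12, adjusted p = 0.0325). The conjugating enzyme UBE2L6 had means of 5.30, 6.40 and 4.94 in the same order, and rose by 1.46 in atretic against small healthy ones (SE 0.22, adjusted p = 0.00143). Between large and atretic follicles UBA7 differed by 0.47 and UBE2L6 by -1.10 (adjusted p = 0.138 for each).

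Markers of other cell types moved with the groups. In atretic against small healthy follicles 8 of 10 tested macrophage genes were called higher (background 2.08%), CD68 by 2.70 (SE 0.46, adjusted p = 0.00187) and CD14 by 2.24. So were 4 of 12 tested leukocyte genes, including the pan-leukocyte gene PTPRC (a log2 difference of 1, adjusted p = 0.013). The mean log2 signal of 11 macrophage genes was 4.19 ± 0.41 in small healthy (SD, n = 10), 4.73 ± 0.34 in large (SD, n = 4) and 5.59 ± 0.59 in atretic follicles (SD, n = 5), and their summed signal ran from 193 to 517, from 382 to 630 and from 510 to 1500. For 15 lymphocyte and pan-leukocyte genes the means were 3.16, 3.52 and 3.73 and the sums ran from 117 to 224, from 179 to 337 and from 176 to 353; CD79A and MS4A1, which mark B cells, were under 3 on every array. In large against small healthy follicles 1 of 10 tested macrophage genes was called, MSR1 (1.10, adjusted p = 0.0495), beside a background of 0.629% called higher. Of the 8 smooth muscle and pericyte genes tested there, 1 was called, DES (1.25, adjusted p = 0.0187).

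The mean of the 28 interferon-stimulated genes was 4.99 ± 0.25 in small healthy, 5.52 ± 0.18 in large and 5.06 ± 0.08 in atretic follicles (SD, n = 10, 4 and 5), an order other than that of the macrophage and leukocyte genes. Within groups, r between the members' mean and that of any of 7 cell type lists lay between -0.238 and 0.22 over 19 arrays. The 10 endothelial genes had means of 5.36, 5.73 and 5.54 in small healthy, large and atretic follicles, and the 8 smooth muscle and pericyte genes 6.61, 7.16 and 6.90, highest in large follicles as the interferon-stimulated genes were. INSL3, a hormone made by theca cells, was well above the detection limit on every array, from 10 to 12.5. The mean of the 6 genes of steroidogenic theca, INSL3 included, was 8.54 in small healthy, 8.65 in large and 7.91 in atretic follicles, and CYP11A1, the side-chain cleavage enzyme, was called lower in atretic than in small healthy ones (8.98 against 10.3). The mean of 6 granulosa genes was 6.01, 6.40 and 5.34, with CYP19A1 at up to 5.8 in large follicles. The 27 probe sets for poly-A control RNA, added to the samples before labelling, averaged 4.23 ± 0.20 in small healthy, 5.39 ± 0.25 in large and 4.41 ± 0.27 in atretic follicles (SD, n = 10, 4 and 5). The part of these cells, vessels and controls in the differences above was not tested, and in whole tissue fewer cells of a type cannot be told from less RNA per cell.

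**Figure D5:**
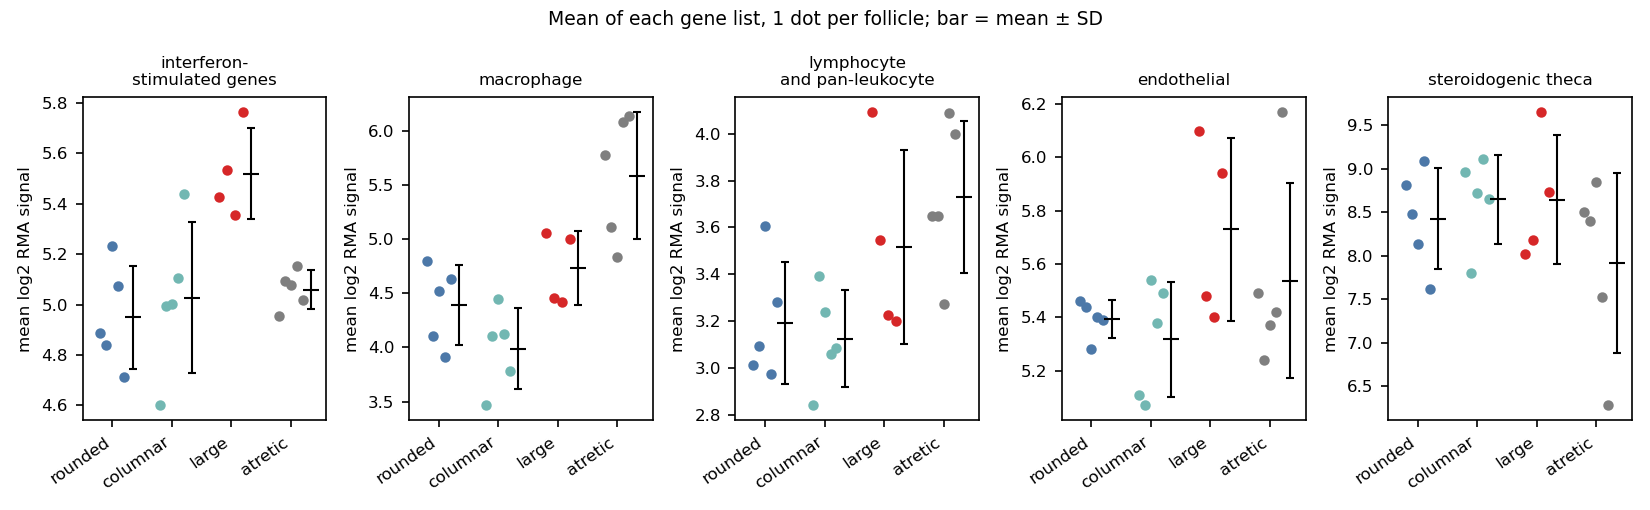
Mean log2 RMA signal of the 28 interferon-stimulated genes and of 4 marker lists on each array, by follicle group, with the mean ± SD of each group. The interferon-stimulated genes are highest in large follicles, while macrophage genes are highest in atretic ones.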

How the data were processed

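Per the labels and the paper, the authors summarized the arrays by Robust Multi-Array Average with quantile normalization in Partek 6.5; the deposited values are log2 signals given to 1 decimal. The sources used here do not say if the 19 arrays went through this step as 1 set. For this report, limma 3.58.1 in R 4.3.3 (lmFit, eBayes, Benjamini-Hochberg over all probe sets tested) was run on the arrays of the groups compared, with the 3 healthy groups in 1 fit for columnar against rounded. The 111 control probe sets were left out. Probe sets were named by the platform annotation, with 13263 looked up in ARS-UCD2.0 by gene ID and no symbol changed. No arrays held identical values; 4 or 5 arrays a group limit the precision. Members, gene lists and tests were chosen with earlier results of these data known. Named in the text were called members, otherwise the 4 of a role with the smallest p between large and atretic follicles, plus receptors, ligands and the genes most alike; EIF2AK2, SAMD9, TRIM21, IFITM1, IFI44L and the genes of the ISG15 pathway were named after their values were seen. Alternatives covered the filter, scaling, arrays in the fit, test, fold limit, replicate block, probe sets averaged, control group and each array left out. The test was run on simulated data in which each probe set varied independently, without the variation that genes share between follicles. There it called 82.1% of 2.5-fold changes between large and atretic follicles, a share that need not hold for these arrays.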

Additional observations from a re-analysis of the deposited data

Results flagged for a closer look

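In 12 of the 112 combinations of a gene and a group (10.7%), the gap between the highest or lowest follicle and the next was large beside the range of its group; chance gives about 1 in 20, without regard to values rounded to 1 decimal. Among atretic follicles, replicate 3 was the lowest for IFI16 (5.9), PARP9 (5.4), RTP4 (4.2) and STAT2 (4.6). Columnar replicate 1 was the lowest for IFI6 (6.7) and XAF1 (4.2). Rounded replicate 4 was the lowest for IFI35 (5.8, against 5.9 in the other 4, which is 1 step of the rounding) and the highest for IFIT2 (2.8, under the detection limit), and rounded replicate 5 the lowest for STAT2 (4.0). Among large follicles, replicate 4 was the lowest for GBP1 (5.5), replicate 3 the lowest for PARP14 (6.0) and replicate 1 the highest for HERC5 (5.0).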

How the results depend on the processing

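Values under the alternatives were counted only for members with an unadjusted p under 0.05 in the main setting. Columnar against rounded was left out of this count. Of these values, 881 kept their direction and side of the threshold, 19 lost a call, 15 gained one and 0 changed sign. Signs did change among the other members. In atretic against small healthy follicles, 14 members were higher and 12 lower in the main setting. With arrays centred on their medians these were 12 and 14. Between large and atretic follicles no member was called under any alternative. Probe sets called there numbered 43 with all 19 arrays in 1 fit and 0 to 92 with 1 array left out (40 without large replicate 1, 92 without large replicate 4, 2 without atretic replicate 3), and the members' median was 0.20 to 0.34. Between large and small healthy follicles, 110 probe sets were called in the main setting, 54 by the methods' test without moderation, 557 with no fold limit, 12 against rounded follicles alone and 59 without large replicate 2 and columnar replicate 1, both with high granulosa cell genes; members called were 7 with no fold limit and 0 against rounded follicles alone. With 1 array left out, 54 (without large replicate 4) to 162 probe sets and 2 to 5 members were called, and the median was 0.47 to 0.59. Between atretic and small healthy follicles, 569 probe sets were called, 4939 with no fold limit and 151 against rounded follicles alone; members called were 6 with no fold limit and 0 when probe sets were averaged. With 1 array left out there were 444 to 706 probe sets, 1 member and a median of -0.02 to 0.07. Columnar against rounded gave 0 probe sets and 0 members throughout the arrays left out, with a median of -0.03 to 0.14. The r of same-numbered deviations ran from -0.343 to 0.569, and the median r of other numbers from -0.0896 to 0.00986 over the 4 comparisons. With so few pairs, these values cannot settle whether the replicate numbers of the labels pair follicles. With the replicate number as a block, members called were 0, 4, 1 and 0 and probe sets 0, 77, 564 and 0 in the 4 comparisons.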
